A study of Mus musculus with 6 samples.

Results

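Lifr, Il6st, Jak1, Stat3, Socs3 and Pim1 are 6 genes of the pathway that carries the signal of leukaemia inhibitory factor (LIF) in mouse embryonic stem cells (mESCs). They were chosen by name, from what their products do, among 21774 protein-coding genes of the RefSeq annotation. For each gene, the peaks of an ATAC-seq peak list that lay within 1 kb of any of its transcription start sites (TSSs) were taken as promoter peaks, and the peaks in the gene span plus 50 kb on each side as window peaks. The 6 windows held 37 of the 41014 peaks listed.

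ATAC-seq uses the Tn5 transposase to insert adapters into DNA that is not covered by nucleosomes, so that listed peaks mark accessible chromatin. It was measured in untreated mESCs of the line V6.5 and in mESCs that carry a degron on ZBTB21, a zinc finger protein with a BTB domain, at 0 and 6 h of IAA (auxin), with 2 samples in each of the 3 groups. The list analysed here was the 1 list of the untreated V6.5 group, pooled over its 2 replicates, and the 4 degron samples were not analysed here. The question put to it was where the accessible sites of these genes lay relative to their TSSs, to ZBTB21 peaks and to the 2 classes of chromatin loops described with the loop results.

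V6.5 is an established mouse ES cell line. The cells were grown on irradiated mouse embryonic fibroblasts in medium with serum and LIF, the ligand of the pathway. The methods of the study also list the inhibitors CHIR99021 and PD0325901 in the mESC medium, which block GSK3 and MEK, whereas the labels of these samples do not name them. The treatment text that all samples share names 24 h of doxycycline at 1 μg/ml for degron cells, whereas the samples used here were labelled untreated. Of 6 genes that mark ES cells, all 6 had window peaks and 4 had a promoter peak, beside 81.9% and 29.9% of protein-coding genes. Sox2 and Esrrb had none within 1 kb of a TSS. Of 6 fibroblast markers, 5 had window peaks and 2, Thy1 and Pdgfra, had a promoter peak, and Twist2 had no peak in its window, so the fibroblast counts lay near those shares. Both sets of markers were chosen after the list was seen, so these counts are a description and no check of the cells. The part of feeder cells in the peaks below was not tested.

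LIF binds the receptor chain LIFR, which pairs with gp130, the product of Il6st. JAK1, a tyrosine kinase held by the receptor chains, phosphorylates them and the transcription factor STAT3, which then enters the nucleus and binds DNA as a dimer. Socs3 encodes an inhibitor that is induced by STAT3 and acts back on JAK1 and gp130, and Pim1 encodes a serine/threonine kinase that is a classical target of the pathway. In mESCs this pathway is known for maintaining self-renewal.

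STAT dimers bind the palindrome TTCNNNGAA, and TTCCNGGAA, a subset of it, is the form preferred by STAT3. Across the whole length of the window peaks, matches to TTCNNNGAA were found in 9 of 37 peaks (24.3%), beside 15.0% of all listed peaks, but in the central 300 bp the shares were 8.11% and 8.22%. Of the 9 peaks, 4 lay at Socs3, 3 at Stat3, 2 at Lifr and none at Il6st or Pim1. The sites that matched TTCCNGGAA and the site in the Socs3 promoter are shown with 10 bases on each side, from the reference genome (GRCm38, the assembly named mm10) and in the direction of the gene. The capitals mark the match.
Socs3 promoter, −0.15 kb, chr11:117969502-117969530, minus strand: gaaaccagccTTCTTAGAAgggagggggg
Socs3, 0.123 kb past the curated TSS, chr11:117969229-117969257, minus strand: ggccgggcagTTCCAGGAAtcggggggcg
Socs3, 6.74 kb past the curated TSS, chr11:117962613-117962641, minus strand: gcttccgctcTTCCTGGAAagggaatttc
Stat3, −17.9 kb, in a Cavin1 exon, chr11:100957463-100957491, minus strand: aggaactgccTTCCGGGAAgccttgtttt
The Socs3 promoter peak thus held 2 STAT-type sites, on either side of the curated TSS, and another lay beyond the 3′ end of the gene. The matches to TTCCNGGAA 6.74 kb past the curated Socs3 TSS and in the Cavin1 exon lay outside the promoter peaks. No match of either form fell in the promoter peak of Stat3 itself. These are matches of letters, and STAT3 binding was not measured here.

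The RefSeq promoters of the other genes are shown as the stretch of at most 200 bases before the TSS that holds no exon, with the GC box GGGCGG in capitals on either strand (GGGCGG or CCGCCC). They are shown because a listed peak lay at the downstream Lifr TSS and at Stat3 and none lay within 1 kb of the others.
Lifr upstream curated TSS, no promoter peak, chr15:7129355-7129554, plus strand: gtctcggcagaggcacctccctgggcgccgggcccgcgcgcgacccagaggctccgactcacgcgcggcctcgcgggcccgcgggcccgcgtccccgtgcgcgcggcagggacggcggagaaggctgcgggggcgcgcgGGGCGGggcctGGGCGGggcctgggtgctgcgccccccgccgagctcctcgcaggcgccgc
Lifr downstream curated TSS, promoter peak, chr15:7140305-7140504, plus strand: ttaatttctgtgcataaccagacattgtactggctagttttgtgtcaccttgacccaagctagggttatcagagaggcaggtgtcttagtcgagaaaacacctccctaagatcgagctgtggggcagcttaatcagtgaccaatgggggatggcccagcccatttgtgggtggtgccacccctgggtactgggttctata
Il6st, no promoter peak, chr13:112463870-112464069, plus strand: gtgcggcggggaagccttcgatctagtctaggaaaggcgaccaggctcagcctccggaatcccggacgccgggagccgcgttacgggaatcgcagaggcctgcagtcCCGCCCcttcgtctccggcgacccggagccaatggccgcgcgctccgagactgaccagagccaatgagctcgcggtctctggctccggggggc
Jak1, no promoter peak, chr4:101265283-101265473, minus strand: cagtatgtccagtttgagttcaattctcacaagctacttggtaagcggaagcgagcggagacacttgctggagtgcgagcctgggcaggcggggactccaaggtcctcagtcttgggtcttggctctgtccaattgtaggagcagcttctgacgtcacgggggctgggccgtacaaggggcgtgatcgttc
Stat3, promoter peak, chr11:100939595-100939790, minus strand: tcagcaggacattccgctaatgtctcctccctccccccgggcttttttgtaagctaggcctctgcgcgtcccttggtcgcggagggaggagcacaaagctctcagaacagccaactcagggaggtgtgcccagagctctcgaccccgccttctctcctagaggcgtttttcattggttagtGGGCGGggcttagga
Pim1 upstream TSS, no promoter peak, chr17:29490585-29490784, plus strand: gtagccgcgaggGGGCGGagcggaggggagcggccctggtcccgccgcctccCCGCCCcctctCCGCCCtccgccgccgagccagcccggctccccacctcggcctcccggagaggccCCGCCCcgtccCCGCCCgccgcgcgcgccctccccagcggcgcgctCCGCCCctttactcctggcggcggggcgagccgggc
Pim1 downstream TSS, no promoter peak, chr17:29492885-29493084, plus strand: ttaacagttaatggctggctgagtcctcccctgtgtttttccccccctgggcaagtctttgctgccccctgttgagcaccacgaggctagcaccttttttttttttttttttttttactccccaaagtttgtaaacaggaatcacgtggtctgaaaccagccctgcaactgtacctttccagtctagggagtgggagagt
The printed stretch of Pim1 held 6 GC boxes and that of the upstream Lifr TSS 2, and neither TSS had a listed peak within 1 kb. The downstream stretches of Lifr, at a peak, and of Pim1, at none, both held 0 GC boxes and 2 CpG dinucleotides in 200 bases, and the stretch of Stat3, at a peak, held 1 GC box. Among these few printed stretches, which leave out Socs3, GC boxes and CpGs thus did not separate those with a peak from those without. Over all RefSeq promoters the share with a peak did differ with CpG content, as given below.

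A promoter peak was listed for 3 of the 6 genes, Lifr, Stat3 and Socs3, and for none of Il6st, Jak1 and Pim1. Over all protein-coding genes, 29.9% had such a peak. The 3 genes had 4 promoter peaks, 2 at Lifr and 1 each at Stat3 and Socs3, and 2.80% of protein-coding genes had 2 or more. The count depended on the list, since with the peaks that scored above the list median of 696 only Stat3 kept a promoter peak (19.4% of protein-coding genes). It was 4 at a distance of 2.5 kb, where Il6st joined (34.9%), and 3 at 500 bp (27.9%) and with curated transcripts only (28.5%). With a list from 1 condition and no values per replicate, no difference could be tested, and a count beside its background is a description.

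Around the genes, 37 peaks were spread unevenly. Lifr and Stat3 had 10 each, Socs3 had 7, Il6st had 6, Pim1 had 4 and Jak1 had none. At least 1 peak was listed in the window of 81.9% of protein-coding genes, where the median was 4 peaks with quartiles of 1 and 6. Of the 37 peaks, 20 lay upstream of the gene, 9 in its span and 8 downstream. Per length, the windows of Socs3 and Stat3 held 67.1 and 65.4 peaks per Mb, those of Lifr, Il6st and Pim1 held 48.3, 42 and 38, and that of Jak1 held 0. The density over the 6 windows, 925.4 kb in all, was 40 peaks per Mb, compared with a median of 25.9 over the windows of protein-coding genes (quartiles 8.67 and 47.8) and 15 over the assembled chromosomes. Lifr, Stat3 and Socs3 lay above the upper quartile, and 5 of the 6 genes lay above the median.

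**Figure D1:**
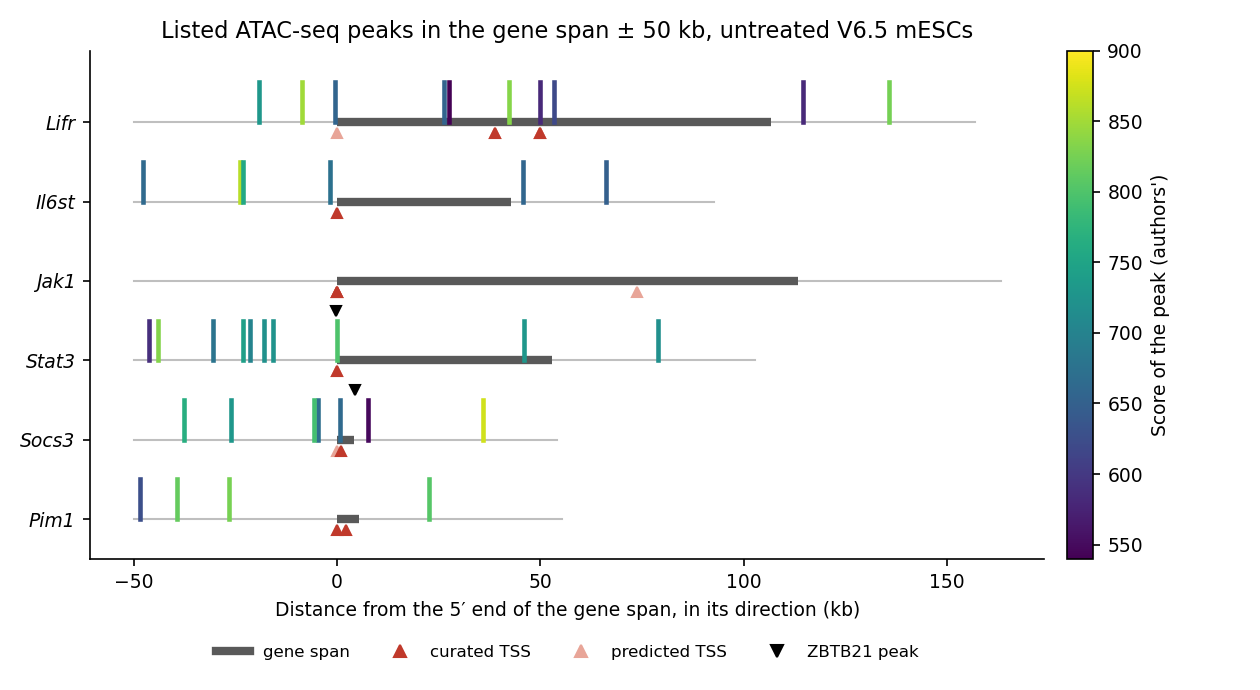
Listed ATAC-seq peaks around each gene, by distance in kb from the 5′ end of its span in the direction of the gene. Coloured bars are peaks by score, dark bars the gene spans, pale lines the windows, red triangles curated TSSs, pale triangles predicted TSSs and black triangles ZBTB21 peaks. Lifr and Stat3 have 10 peaks each and the Jak1 window has none.

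**Figure D2:**
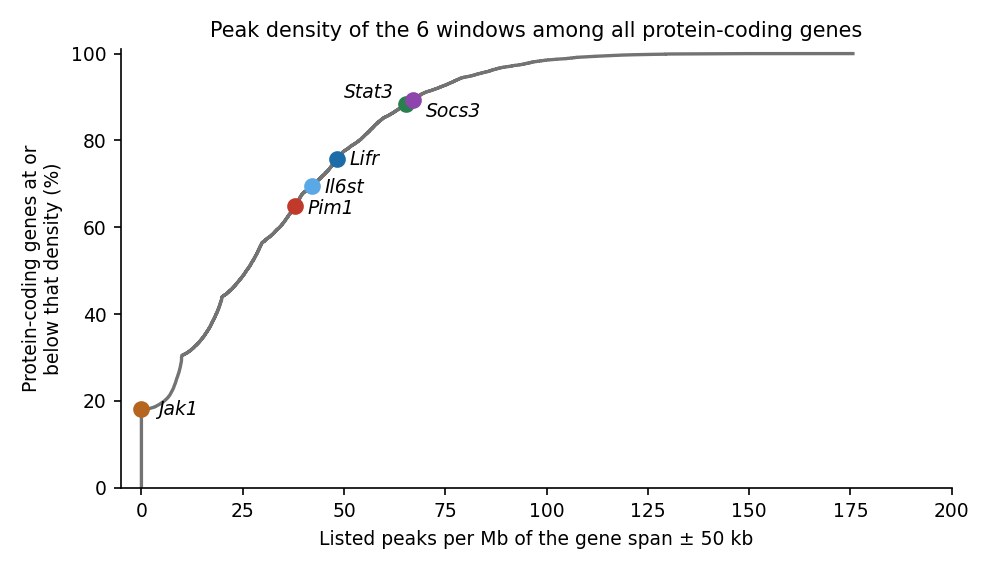
Peaks per Mb of the gene span plus 50 kb on each side for the 6 genes, against the distribution over 21774 protein-coding genes. Socs3 and Stat3, at 67.1 and 65.4, lie above the upper quartile of 47.8, and Jak1 lies at 0.

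Lifr, which encodes the ligand-binding chain of the LIF receptor, spans 106.9 kb on the plus strand at chr15:7090610-7197489 and has 7 annotated transcripts with 6 TSSs. Its 10 peaks were more than, or as many as, those of 94.7% of protein-coding genes. The curated TSS farthest upstream, at position 7129572, had no peak within 1 kb, and the nearest peak lay 3166 bp past it at chr15:7132738-7133131, with a width of 394 bp and a score of 834. The score, given in the list for each peak, ranged from 540 to 953 over the list with a median of 696. It was read, from its values alone, as a score of agreement between replicates, so a higher score need not mean more accessible chromatin. The other curated TSS, at position 7140542, lay inside a peak of 184 bp with a score of 582 (chr15:7140402-7140585), and 0.441% of the listed peaks were no wider. The other Lifr promoter peak, chr15:7089655-7090798, was 1144 bp wide with a score of 656 and lay at a predicted TSS, with its centre at −384 bp from it. Thus neither promoter peak of Lifr lay at the curated TSS with the CpG-rich sequence, and both scored under the list median.

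The remaining Lifr peaks lay in introns or outside the gene. Peaks of 253 and 216 bp at −12.6 and −11.4 kb from the nearest TSS had scores of 654 and 540, the latter the lowest score in the list. An intronic peak 3.41 kb past the downstream TSS was 458 bp wide with a score of 620. The gene span starts at a predicted TSS. Upstream of it, a peak of 697 bp at −8.58 kb from that TSS had the highest score of the Lifr window, 848. The STAT-type site in that peak lay −47.4 kb from the nearest curated TSS. A peak of 431 bp at −19.0 kb from the predicted TSS had a score of 730. Downstream, peaks at 64.7 and 85.9 kb had scores of 581 and 825, and the latter lay in an intron of Egflam, which encodes an extracellular matrix protein. The high scores at Lifr, above 800, all lay farther than 1 kb from its TSSs.

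Il6st encodes gp130, the signalling chain that the LIF receptor shares with other cytokine receptors of the interleukin 6 family. It spans 42.8 kb on the plus strand at chr13:112464070-112506860, with 1 transcript and 1 TSS. No peak lay within 1 kb of the TSS, but the nearest, chr13:112462054-112462875, ended 1195 bp upstream of it and was 822 bp wide with a score of 674. A peak at least as near was listed for 30.7% of protein-coding genes, so that Il6st lay just outside the 1 kb limit. Of the 37 peaks, it alone held in its central 300 bp the octamer ATGCAAAT, which is bound by POU factors such as OCT4. It is shown with the octamer in capitals as it reads on the plus strand (ATTTGCAT).
Il6st, −1.61 kb peak, chr13:112462522-112462621, plus strand: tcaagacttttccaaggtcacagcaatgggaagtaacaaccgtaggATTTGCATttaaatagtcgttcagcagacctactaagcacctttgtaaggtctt
The octamer was found in the central 300 bp of 2.85% of all listed peaks.

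The gene span of Il6st held no listed peak. A stretch of 46.7 kb without a peak, chr13:112462876-112509612, covered the whole gene, and 27.1% of the gaps between neighbouring peaks of the list were at least as long. Such gaps made up 82.5% of the summed gap length. Upstream, peaks of 479 and 626 bp lay at −23.9 and −23.1 kb with scores of 862 and 756. A peak of 1007 bp with a score of 663 lay at −47.6 kb in an intron of Gm33905. Downstream, a peak of 306 bp with a score of 657 lay 45.7 kb past the TSS, and a peak of 507 bp with a score of 649 lay 66.1 kb past it in a coding exon of Il31ra, a receptor gene of the same family.

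Jak1, the tyrosine kinase of the receptor complex, spans 113.3 kb on the minus strand at chr4:101151974-101265282. It was the only gene of the 6 with no listed peak in its window, which also was the longest at 213.3 kb. No peak was listed in the windows of 18.1% of protein-coding genes, and in 7.31% of the 2065 windows that were at least as long. The nearest peak lay 126807 bp from the outermost curated TSS, at chr4:101392089-101392515, and was 427 bp wide with a score of 604. The nearest peak on the other side of the gene lay at chr4:101002792-101003487, with a width of 696 bp and a score of 694. At 12.2% of protein-coding genes, the nearest peak lay at least as far away.

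The stretch without a peak around Jak1 was 388.6 kb long (chr4:101003488-101392088). Only 2.67% of the 40987 gaps between neighbouring peaks were as long, but such gaps made up 39% of the summed gap length. It also held the TSS of Raver2, which encodes an RNA-binding protein, and it held 0 unknown bases in the reference. The absence of a listed peak says that none passed the threshold of the list, and the reads behind it were not analysed here, so that accessibility at Jak1 below that threshold cannot be given.

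Stat3, the transcription factor of the pathway, spans 52.8 kb on the minus strand at chr11:100886806-100939594. Its promoter peak, chr11:100939225-100939966, was 742 bp wide and centred 1 bp upstream of the predicted TSS and 55 bp upstream of the curated TSS. With a score of 800 it was the only promoter peak of the 6 genes that scored above the list median. It also lay within 1 kb of the TSS of Gm46295, which starts beside Stat3, so the peak cannot be assigned to either gene alone. A peak of 561 bp with a score of 730 lay in a Stat3 coding exon, 45.9 kb past the TSS.

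Upstream of Stat3, 7 peaks lay between −15.7 and −46.3 kb, and 4 of them fell in Cavin1, which encodes a coat protein of caveolae. The widest of all 37 peaks, 1799 bp with a score of 679 at chr11:100969164-100970962, lay at the Cavin1 TSS, and 99.8% of the listed peaks were no wider. The peak in the Cavin1 exon that held the STAT-type site shown above, chr11:100957349-100957806, was 458 bp wide with a score of 721. The highest score upstream, 833, belonged to a peak of 626 bp at −43.9 kb outside any gene. Downstream, a peak of 679 bp with a score of 719 lay at the TSS of Stat5a, a neighbouring gene of the STAT family. Both Cavin1 and Stat5a thus contributed promoter peaks of their own to the Stat3 count.

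Socs3, the feedback inhibitor, is a short gene of 4.26 kb on the minus strand at chr11:117966079-117970336. Its promoter peak, chr11:117968947-117970290, was 1344 bp wide, and 98.6% of the listed peaks were no wider, whereas its score of 663 lay under the list median. The peak centre lay −252 bp from the curated TSS at position 117969366, and the peak ended 46 bp short of the predicted TSS at position 117970336. A peak of similar width, 1370 bp with a score of 792 (chr11:117975333-117976702), was centred −5.68 kb from the predicted TSS. Next to it was a peak of 359 bp with a score of 670 at −4.54 kb. Farther upstream, peaks of 494 and 819 bp at −26.0 and −37.6 kb from the predicted TSS had scores of 730 and 765. They lay in introns of Pgs1, which encodes an enzyme of mitochondrial phospholipid synthesis. Downstream, the peak with the site TTCCTGGAA was 464 bp wide with a score of 548. A peak of 669 bp 35.0 kb past the curated TSS had the highest score of all 37, 874.

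Pim1, the target kinase, is 5.33 kb long on the plus strand at chr17:29490785-29496111, with 2 curated TSSs. Neither had a listed peak within 1 kb, and the nearest, chr17:29513038-29513642, lay 19953 bp from the downstream TSS and was 605 bp wide with a score of 805. The nearest peak was at least as far away at 34.9% of protein-coding genes. The other 3 peaks lay upstream, at −26.6, −39.4 and −48.3 kb, with widths of 743, 1049 and 980 bp and scores of 826, 815 and 626. The peak at −26.6 kb lay within 1 kb of the TSS of Gm36199, and the others in introns of that gene. The gene lay in a stretch of 48.5 kb without a peak (chr17:29464560-29513037), and 26.2% of all gaps were as long. Such gaps made up 81.9% of the summed gap length, so lying in one is not unusual. Pim1 and Il6st were thus alike in having the whole gene span in a gap of similar length between listed peaks.

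The 37 peaks had a median width of 561 bp, from 184 to 1799 bp, against 547 bp for the whole list. Their median score was 721, from 540 to 874, against 696, and 21 of the 37 scored above the list median, as did 49.8% of the list. The median score of the 37 had a 95% interval from ranks of 663 to 756, which included the list median, and in narrower windows of 20 kb on each side it was 672. The interval treats the peaks as independent, although many share a window, so it is a description and no test. The 4 promoter peaks had a median width of 943 bp and a median score of 659.5, whereas the 8193 listed peaks within 1 kb of any RefSeq TSS had medians of 705 bp and 729. The promoter peaks of these genes were thus wider than the list median in 3 of 4 cases, and 3 of the 4 scored under the median of the list. The 33 other peaks had a median width of 534 bp and a median score of 725. All listed peaks farther than 1 kb from any RefSeq TSS had medians of 519 bp and 689. These sets were not alike, since the 33 included peaks within 1 kb of the TSSs of Stat5a, Cavin1 and Gm36199.

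The promoters of the 6 genes differed in base composition in a way that did not follow the peaks. In the RefSeq promoters of 300 bp (250 before and 50 after the TSS), the CpG ratio, observed over expected from base content, was 1.07 at the upstream Lifr TSS, 0.943 at Il6st, 0.947 at Jak1 and 0.847 at the upstream Pim1 TSS, none of which had a promoter peak. It was 0.769 at Socs3, 0.545 at Stat3 and 0.188 at the downstream Lifr TSS, all with a promoter peak, and 0.278 at the downstream Pim1 TSS, which had none. The median over 32841 RefSeq promoters was 0.384. Over all promoters, the share with a listed peak within 1 kb was 8.68% at a CpG ratio under 0.25 and 34.5% at 0.75 and over, so that most CpG-rich promoters were not at a listed peak either. The 4 highest CpG ratios among the 8 promoters belonged to those without a peak, and the 8 promoters come from 6 genes, too few for more than a description.

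**Figure D3:**
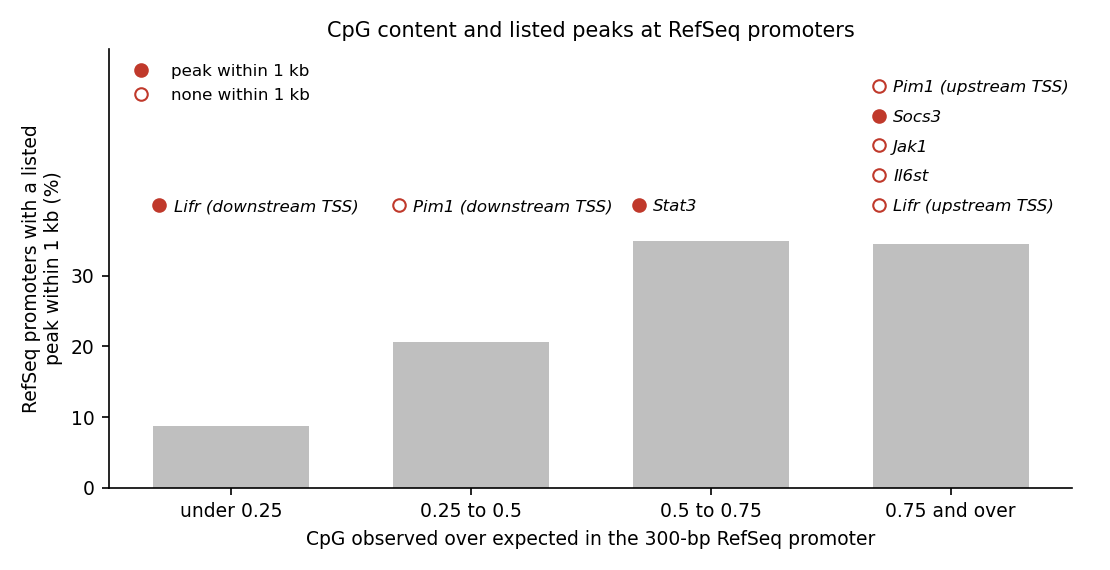
Share of RefSeq promoters with a listed peak within 1 kb (bars, in percent) by CpG ratio, observed over expected, with the promoters of the 6 genes placed above their class by name. The filled symbols, at a peak, are Socs3, Stat3 and the downstream Lifr TSS, and 4 of the 5 promoters in the highest class have none. The height of the symbols has no meaning.

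In the central 300 bp of the peaks, TTCNNNGAA was found in 3 of 37 peaks (8.11%), beside 8.22% of all listed peaks. TTCCNGGAA was found in 2 (5.41%), beside 1.47%, and these were the peak 6.76 kb past the Socs3 TSS and the peak in the Cavin1 exon. Over the whole length it was found in 3 peaks (8.11%), beside 2.53%. Counts of 2 and 3 allow no firmer statement. GGGCGG was found in 13 peaks (35.1%), beside 22.3%, and TGACTCA, the element of AP-1 factors, in 3 (8.11%), beside 8.43%. CACGTG, the E-box of MYC-type factors, was found in 1 peak (2.70%), beside 5.56%. TCAAGGTCA, the element of the nuclear receptor ESRRB, was found in none of the 37, beside 1.27%, and none over their whole length, beside 2.27% of all listed peaks. Both strands were searched in each case. In base composition the central 300 bp lay near the list, with a median GC content of 54.7% against 52.7% and a median CpG ratio of 0.259 against 0.248. Among the 300-bp RefSeq promoters, 8.30% held TTCNNNGAA, 1.15% held TTCCNGGAA and 35.7% held GGGCGG. Of the 8 promoters of these genes, only that of Socs3 held TTCNNNGAA, and none held TTCCNGGAA.

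A ZBTB21 peak of the study's mESC list of 1827 peaks overlapped 1 of the 37 ATAC-seq peaks, the Stat3 promoter peak, beside 1.98% of the listed ATAC-seq peaks. The ZBTB21 peak, chr11:100939149-100940578, was 1430 bp wide and covered all 742 bp of the promoter peak. Over all protein-coding genes, 2.95% had a promoter peak that overlapped a ZBTB21 peak. Another ZBTB21 peak, chr11:117965035-117966684, lay over the 3′ end of Socs3, 1650 bp wide and 2202 bp from the nearest ATAC-seq peak. A ZBTB21 peak was thus found in 2 of the 6 windows, compared with 21.9% of the windows of protein-coding genes, and none in the windows of Lifr, Il6st, Jak1 and Pim1. The study measured ZBTB21 in mESCs that carry a degron and GFP tag on it, whereas the ATAC-seq list came from untreated V6.5 cells.

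The responsive loops are long loops that held both ZBTB21 peaks and cohesin peaks that fell on degradation of ZBTB21, and the less-responsive loops held neither. They were ranked by the ZBTB21 signal and the size of the cohesin change at the ATAC-seq peaks inside them. The classes thus rest on ZBTB21, the change of cohesin and ATAC-seq peaks, and not on a change of the loops themselves. None of the 6 windows overlapped a loop of either class, 500 responsive and 500 less-responsive loops, each taken with both anchors and all that lies between them. Of the windows of protein-coding genes, 18.2% overlapped a responsive and 7.50% a less-responsive loop. Measured from the gene span, the nearest responsive loop lay 0.116 Mb away at Socs3 (chr11:117075001-117850000) and 0.685 Mb away at Stat3. At the other genes it lay between 1.23 Mb (Jak1) and 4.39 Mb (Il6st) away. The nearest less-responsive loop lay from 0.627 Mb (Jak1) to 7.83 Mb (Pim1) from the gene span. Accordingly none of the 37 peaks lay in a loop of either class, whereas the responsive class held 19.4% of the listed peaks and the less-responsive class 2.71%. Other loops called in the study were not examined. The peaks of 1 window share its place in the genome, so these are 6 places rather than 37.

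Among 38 other genes of the pathway, chosen by role, 17 (44.7%) had a promoter peak and 21 had none, beside 29.9% of all protein-coding genes. All 38 had a peak in their window, from 1 to 17 with a median of 6.5, so that among these and the 6 genes Jak1 alone had none. Of the ligand genes, 4 of 7 had a promoter peak. At Lif itself the higher-scored of 2 promoter peaks was 681 bp wide with a score of 817, and Il6, Osm and Ctf1 had scores of 737, 756 and 627, while the nearest peak lay 5.75 kb away at Il11, 6.98 kb at Clcf1 and 29.6 kb at Cntf. Of the other receptor genes, 3 of 5 had a promoter peak, Il6ra (score 722), Il11ra1 (675) and Lepr (550), and the nearest peak lay 9.81 kb away at Cntfr and 26.2 kb at Osmr, whose product pairs with gp130 as LIFR does.

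Of the kinases and adaptors, 2 of 5 had a promoter peak. These were Ptpn11, which encodes the phosphatase SHP2 (score 808), and Gab1, an adaptor (score 855). The JAK kinase genes Jak2 and Tyk2 also lacked a promoter peak, but their nearest peaks lay 1.66 and 5.84 kb away, and that of the adaptor gene Grb2 9.55 kb away. Of the STAT5 genes, Stat5a had a promoter peak (score 719), and the same peak was the nearest to Stat5b, 1.19 kb away. It is also the peak at the Stat5a TSS that was counted in the Stat3 window. The windows of other neighbouring pathway genes overlap too, as at Lif and Osm, so their window counts share peaks.

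Of 8 inhibitors, 3 had a promoter peak, Socs2 (score 812), Cish (858) and Ptpn6 (876), of which the first 2 belong to the family of Socs3. The nearest peak lay 5.18 kb away at Ptpn1 and between 14.6 and 17 kb away at Pias1, Pias3, Ptpn2 and Socs1. Of 11 targets and effectors in ES cells, 4 had a promoter peak, Myc (score 757), Pim2 (877), Junb (634) and Sgk1 (759). Among the pluripotency factors downstream of STAT3, the nearest peak lay 1.05 kb away at Tfcp2l1, 3.66 kb at Gbx2, 22.0 kb at Klf5 and 31.1 kb at Klf4. Pim3, Bcl3 and Mcl1 had their nearest peaks 1.49, 3.77 and 5.79 kb away. The 3 Pim genes thus differed, with a promoter peak at Pim2, a peak 1.49 kb from Pim3 and none closer than 19953 bp to Pim1.

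A promoter peak of Ptpn11 was the only promoter peak of the 38 genes that overlapped a ZBTB21 peak (1 of 38, beside 2.95% of protein-coding genes). The windows of Ctf1, Gab1 and Cish overlapped a responsive loop (3 of 38, beside 18.2% of protein-coding windows), and that of Klf4 overlapped a less-responsive loop (1 of 38, beside 7.50%).

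**Figure D4:**
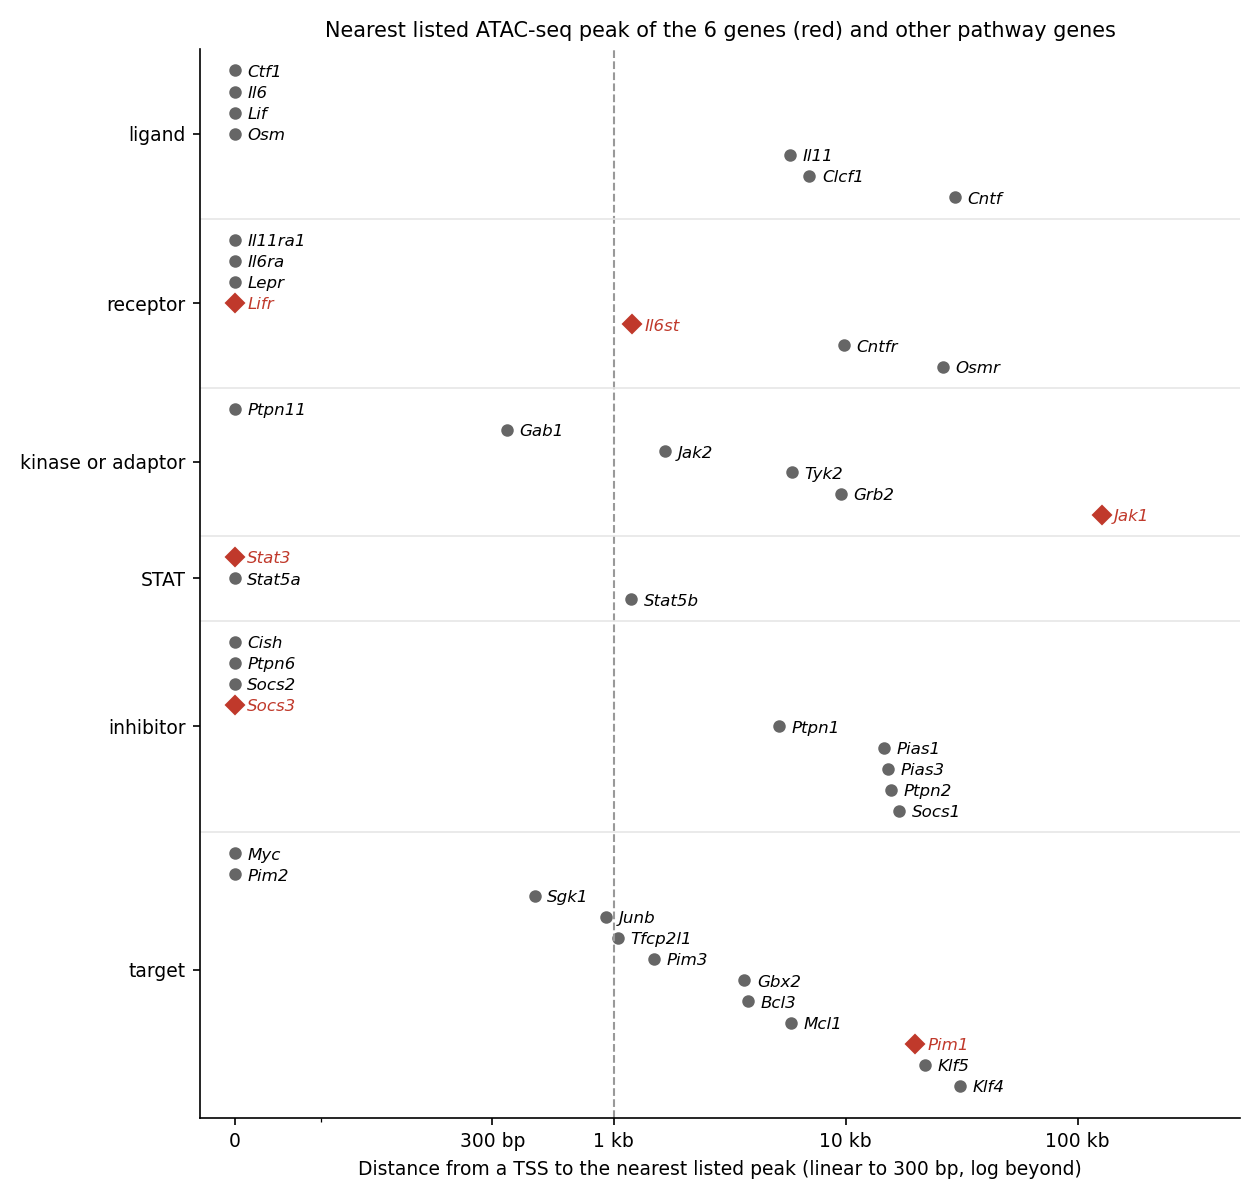
Distance from a TSS to the nearest listed peak (linear to 300 bp, log beyond) for the 6 genes (red diamonds) and 38 other pathway genes (grey circles), by role, with a dashed line at 1 kb. Jak1 lies farthest to the right of all genes, 126807 bp from a peak, and Lifr, Stat3 and Socs3 lie at 0.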

How the data were processed

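ATAC-seq was measured in 6 samples, and the 1 list of peaks that the authors deposited for the untreated V6.5 mESCs was analysed. It gives mm10 coordinates and a score for each peak, pooled over 2 replicates. Depth per sample, replicate values and the calling of ATAC-seq peaks, including any shift of reads for Tn5, are not given in the sources used here. The submitters' processing notes name cutadapt 2.6, Bowtie2 2.3.5.1 and MACS2 2.1.1. The deposited score was left as it is; its lowest value, 540, is the scaled score that IDR software writes for an IDR of 0.05, and it was read so from its values alone.

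Peaks were assigned with Python 3.11.15 and numpy 2.4.6 to TSSs of all RefSeq transcripts (GRCm38) by a gap of at most 1 kb, and to windows by an overlap of at least 1 bp. ZBTB21 peaks and loops came from the study's supplementary lists. Motifs were searched in the 300 bp around the peak centre, and promoter sequences came from RefSeq (GRCm38.p6). The same counts over all protein-coding genes or all peaks served as background, and no test was run. Intervals of medians came from ranks, treat peaks as independent, and cover no replicate error. The counting was tested on simulated data against a direct count (0 of 5400 comparisons differed).

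All 6 genes and 38 other pathway genes were named whatever their values, and 1 more gene of the list is not reported here; the members, lists and motifs were chosen with earlier results of these data known, and the marker genes after the list was seen. Alternatives were a stricter list (score above 696), merging of peaks within 500 bp, TSS distances of 500 bp and 2.5 kb, curated transcripts only, windows of 20 and 100 kb on each side, other overlap rules, loop anchors, and whole peaks for motifs.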

Additional observations from a re-analysis of the deposited data

How the results depend on the processing

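Of 48 values that 11 results took under the alternatives, 41 stayed within 1.5 times the reported count, or within the rank interval of the median, and 7 did not. With the 20408 peaks that scored above 696, 1 gene rather than 3 had a promoter peak (Stat3), with 1 promoter peak rather than 4, beside 19.4% of protein-coding genes. The same list left 21 of the 37 window peaks, 22.7 peaks per Mb, a median score of 792 and 1 peak with TTCCNGGAA, all as follows from a shorter list. Windows of 20 kb on each side held 20 peaks, since they are shorter, at 35.4 peaks per Mb, and their median score of 672 lay under the list median, where the reported 721 lay above it. With a TSS distance of 2.5 kb, Il6st joined the genes with a promoter peak (4 of 6, beside 34.9%), and with curated transcripts only, Lifr kept 1 of its 2 promoter peaks. The counts of peaks at ZBTB21 peaks (1) and in loops of either class (0) stayed the same under every alternative run for them. Most of these alternatives can only remove overlaps, so the count of 0 in loops could have changed only with windows of 100 kb on each side. The Stat3 promoter peak is fully covered by its ZBTB21 peak, so a stricter overlap or shorter windows could not change that count either. Such values are among the 41 and say little about robustness. No paired analysis was possible because the list pools both replicates, and for the same reason no replicate could be left out. The depth behind the list is unknown, so how many sites of these genes were missed cannot be given.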
